A study of Homo sapiens with 8 samples.

Results

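The SR splicing factors SRSF1, SRSF2, SRSF3, SRSF4, SRSF5, SRSF6, SRSF7, SRSF9, SRSF10 and SRSF11 were described at the level of genes and of isoforms. They were chosen by gene symbol and not by a measured value, though earlier results of these data were known. They made up 10 of the 58735 genes in the deposited transcript tables. The genes held 107 annotated transcripts, of which 105 had a rounded count in at least 1 library, and all 10 genes passed the filter on low counts, 10 or more rounded counts in 2 or more libraries. By transcript type in GENCODE release 44, 22 of the transcripts were nonsense-mediated decay isoforms, called decay isoforms below, and 29 were retained-intron isoforms. Of the decay isoforms, 21 had a rounded count.

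The RNA came from BEAS-2B, an established line of human bronchial epithelial cells, exposed here at an air-liquid interface, a model of the airway lining that holds 1 cell type. Cultures had received clean air (CA) or formaldehyde at 1 ppm (FA) during a 2 h exposure and were harvested after 6 h of recovery. RNA was sequenced as input (IN) or after immunoprecipitation with an antibody against 8-oxo-7,8-dihydroguanosine, an oxidised form of guanosine (IP), and the labels and the extraction protocol name different clones of that antibody. The 4 groups CA_IN, FA_IN, CA_IP and FA_IP had 2 libraries each, biological replicates by the study's methods, numbered 1 and 3 by the names of the deposited tables, with between 26152651 and 45144392 expected counts in input and between 16883500 and 23658012 in IP. Keratins were abundant in every input library (KRT7 at 432 to 497 TPM, a transcript share corrected for length), CDH1 and EPCAM lay near 10 TPM (8.82 to 13.4 TPM over both), and the leukocyte, endothelial and fibroblast markers PTPRC, CD3E, VWF and DCN reached at most 0.02 TPM. The other markers of non-epithelial cells were, in input, PECAM1 and PDGFRA at up to 0.06 TPM, PDGFRB at 0.16 to 0.70 TPM and CD68, a lysosomal protein abundant in macrophages, at 1.46 to 2.13 TPM.

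SR proteins bind exonic sequences through RNA-recognition domains and recruit the splicing machinery through a domain rich in arginine and serine. Their genes are known for ultraconserved poison exons and related splicing events in which an early stop codon, or an exon junction downstream of the stop codon, sends the mRNA to nonsense-mediated decay. SR proteins promote such splicing of their own and of each other's transcripts and so limit their own abundance.

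The decay isoforms fell into 3 structural kinds. In 11 isoforms of 6 genes a new stop codon lay in a cassette exon that the MANE Select isoform of the gene lacks. In 8 isoforms of 5 genes the new stop codon lay in another exon. Examples are the extended exon of SRSF5-211 and the exon of SRSF7-208 that keeps an intron. In 3 isoforms of SRSF1 and SRSF2 the normal stop codon was kept, and an intron was removed from the sequence behind it. The sequences of 5 exons with the new stop codon are shown, 4 cassette (poison) exons and the extended exon of SRSF5-211. Those of SRSF3, SRSF4, SRSF5 and SRSF6 belong to the isoforms with most or all of the decay counts of their genes, and that of SRSF7-204 is the spliced poison exon of SRSF7. Each runs 5′ to 3′ on the gene's strand from the first base of the exon to the stop codon annotated in GENCODE 44, which is in capitals, and the coordinates are those of the whole exon on GRCh38.

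SRSF3-203 exon 4, chr6:36599821-36600276, plus strand: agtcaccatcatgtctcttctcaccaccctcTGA
SRSF4-205 exon 4, chr1:29165890-29166064, minus strand: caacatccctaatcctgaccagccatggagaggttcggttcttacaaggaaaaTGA
SRSF5-211 exon 6, chr14:69769511-69770540, plus strand: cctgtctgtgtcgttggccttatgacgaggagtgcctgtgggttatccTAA
SRSF6-202 exon 3, chr20:43459153-43459420, plus strand: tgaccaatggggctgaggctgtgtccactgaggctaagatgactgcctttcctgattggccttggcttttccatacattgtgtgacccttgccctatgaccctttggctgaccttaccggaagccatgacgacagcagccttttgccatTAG
SRSF7-204 exon 4, chr2:38748898-38749346, minus strand: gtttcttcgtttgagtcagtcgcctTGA

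The stop codon ended at base 34 of the 456-base exon of SRSF3-203, at base 56 of the 175-base exon of SRSF4-205, at base 152 of the 268-base exon of SRSF6-202 and at base 28 of the 449-base exon of SRSF7-204. In SRSF5-211 it ended at base 51 of an exon of 1030 bases that continues into an intron. SRSF7 had a second route, SRSF7-208, whose exon 3 of 1127 bases runs from the start of an exon of SRSF7-202 to the end of the next. It thus keeps the whole intron between them, which contains the poison exon. The stop codon ended at base 190, within that intron and ahead of the poison exon. By its annotated type SRSF7-208 was counted with the decay isoforms and not with the retained-intron isoforms. In SRSF2-204 and SRSF2-208 the stop codon was that of the main isoform, and the last exon junction lay 209 and 105 bases behind it.

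**Figure D1:**
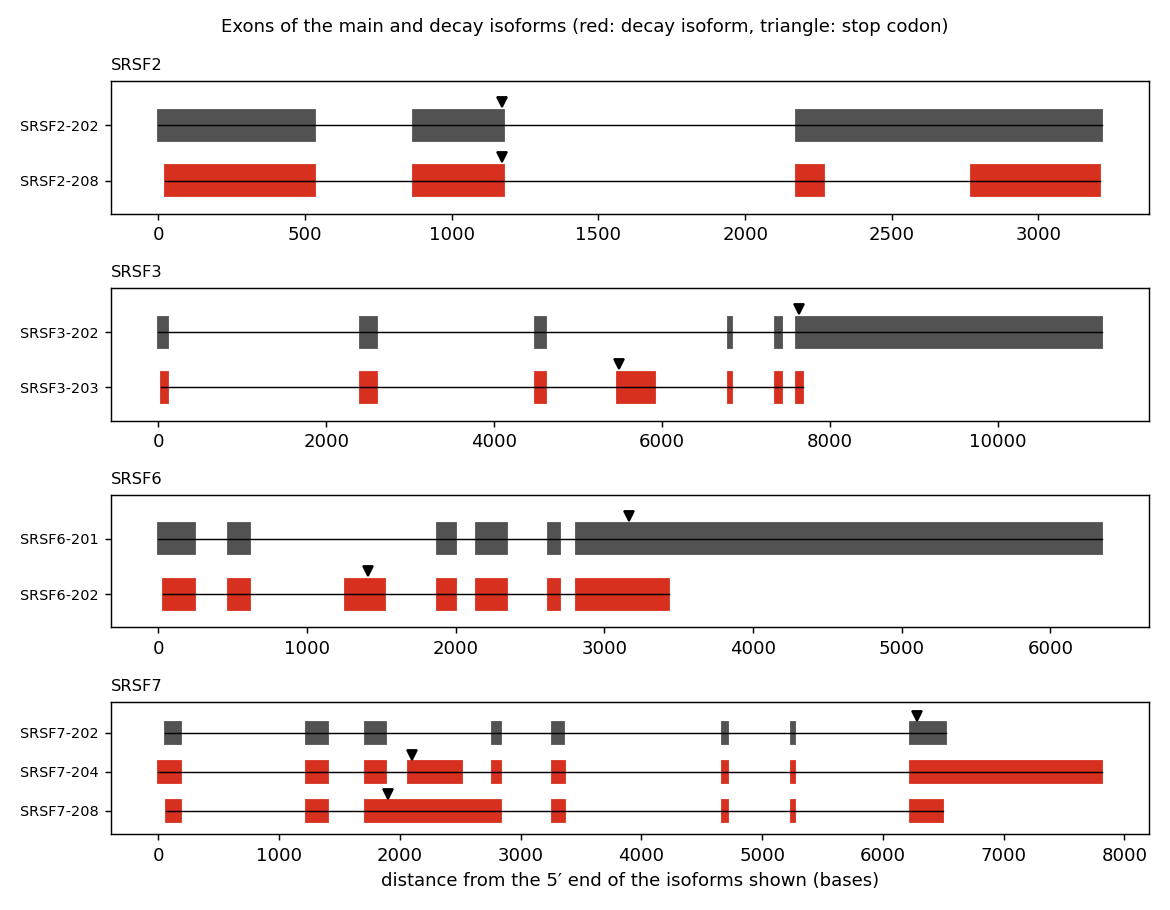
Exons (boxes) and introns (lines) of the main isoform (grey) and decay isoforms (red) of SRSF2, SRSF3, SRSF6 and SRSF7, with the stop codon as a triangle, against the distance in bases from the 5′ end of the isoforms shown. The decay isoforms of SRSF3, SRSF6 and SRSF7 stop in an added or extended exon, and SRSF2-208 keeps the stop codon of SRSF2-202.

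In input RNA the members spanned a wide range of abundance. By TPM, which is per transcript length, SRSF3 was the highest at 117 ± 12.5 (SD, n = 4 input libraries), followed by SRSF2 at 85.8 ± 4.82 and SRSF1 at 85.5 ± 8.70. SRSF7 stood at 71.3 ± 12.1 TPM, SRSF5 at 56.5 ± 9.63 and SRSF9 at 47.4 ± 3.50. SRSF10 followed at 31.7 ± 2.51 TPM, SRSF11 at 27.2 ± 4.20 and SRSF6 at 26.7 ± 2.15, and SRSF4 was the lowest at 5.96 ± 0.923. Between neighbours in this order the 4 input libraries did not overlap for SRSF3 and SRSF2, SRSF9 and SRSF10, and SRSF6 and SRSF4, and they overlapped for every other neighbouring pair. Values of TPM were not set side by side between input and IP, since the TPM of the median tested gene was 1.86-fold higher in IP than in input. Between fractions, counts scaled to library size with TMM normalisation (CPM) were used instead.

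The first comparison asked whether the formaldehyde exposure altered the steady-state level of SR factor mRNAs. None of the 10 genes passed an adjusted p under 0.05 with edgeR's quasi-likelihood test, against 0.00548% of the 18242 genes tested, and 1 member had an unadjusted p under 0.05. DESeq2 called 0 members and 0.0164% of all genes, with 0 members at an unadjusted p under 0.05. Log2 fold changes lay between -0.17 (SRSF11) and 0.18 (SRSF9) with a median of -0.05, and the median over all tested genes was 0.02. Of the 10 members 4 were above 0. With the replicate number as a block 0 members were called in edgeR, with a smallest adjusted p of 0.2005. In that fit 1 member had an unadjusted p under 0.05. The block raised the number of all genes called, as given in the closing section. The intervals below come from the fit without the block, so their width includes the difference between replicate numbers. In these bulk libraries, fewer cells of a type and less RNA per cell cannot be told apart.

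Among factors with a single RNA-recognition domain, SRSF2 had 412 and 407 CPM (CA_IN, replicates 1 and 3) beside 389 and 389 CPM (FA_IN). Its log2 fold change was -0.07, with a 95% interval from -0.24 to 0.09, the narrowest of the members. SRSF3 had 334 and 375 CPM in CA_IN and 326 and 399 in FA_IN, and SRSF7 had 205 and 229 in CA_IN and 182 and 239.6 in FA_IN. For both genes the groups overlapped, and replicate 1 was lower than replicate 3 in both treatments. Among factors with a pair of such domains, SRSF1, which also acts in mRNA export and translation, had 434 and 477 CPM in CA_IN and 432 and 503 in FA_IN. SRSF9 had 116 and 120.1 CPM in CA_IN and 132 and 136 CPM in FA_IN. It was the only member with both formaldehyde libraries above both clean air libraries, and SRSF2 the only one with both below. The share of all genes with such orders was not counted. The log2 fold change of SRSF9, 0.18 (standard error 0.08, 95% interval 0.01 to 0.36), had an adjusted p of 0.945 in edgeR.

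SRSF5, which had the widest interval, had 194 and 135 CPM in CA_IN and 169 and 136 in FA_IN, a log2 fold change of -0.11 (95% interval -0.61 to 0.39). SRSF4 and SRSF6 had log2 fold changes of -0.10 and 0.07. SRSF10, a splicing repressor in its dephosphorylated form, had a log2 fold change of -0.05, and SRSF11, an SR protein of atypical domain structure, -0.17 with 165 and 133 CPM in CA_IN and 142 and 123 in FA_IN. The values of SRSF11 show the same order of replicates in both treatments, replicate 1 above replicate 3. With 2 biological replicates per group, p-values measure only the spread between these libraries.

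**Figure D2:**
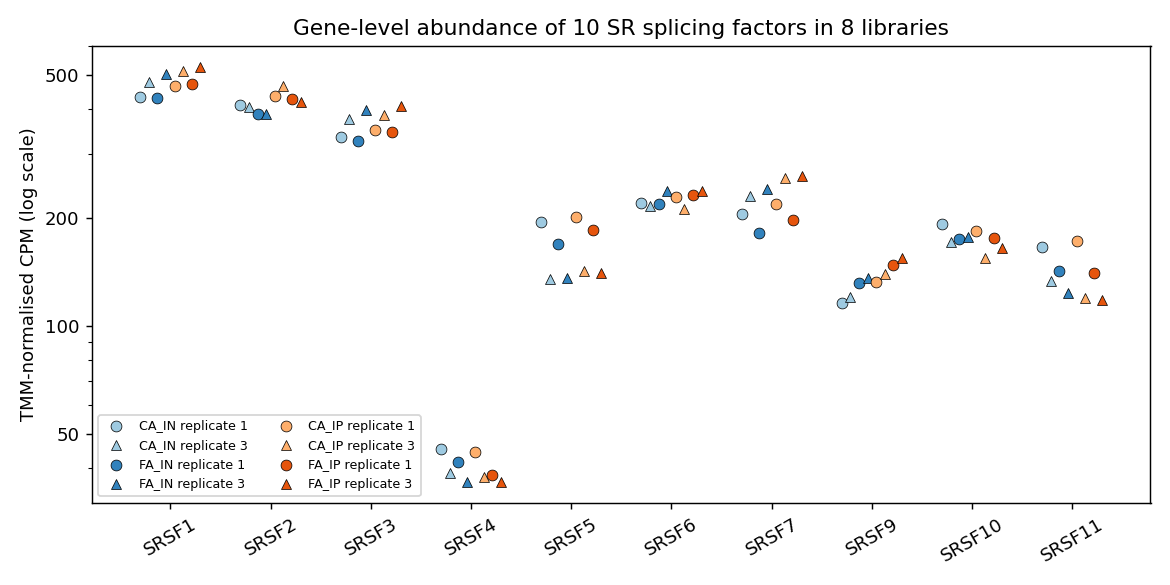
TMM-normalised CPM (log axis) of the 10 SR factor genes in each of the 8 libraries, by group (colour) and replicate number (circle 1, triangle 3). Replicate 1 lies above replicate 3 in all 4 groups for SRSF4, SRSF5 and SRSF11 and below it for SRSF1, SRSF3, SRSF7 and SRSF9.

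The rRNA-depleted RNA of each exposure was split into input and IP, so libraries of the same treatment and number were taken as 1 RNA pool, though the labels do not state it. Their comparison asked whether SR factor mRNAs were taken up by the antibody against oxidised guanosine more or less than other RNAs. Over both treatments 0 of the 10 members were called in edgeR, against 5.19% of all genes, with 2 members, SRSF9 and SRSF2, at an unadjusted p under 0.05. DESeq2 also called 0, against 6.22% of all genes, with 1 at an unadjusted p under 0.05. Log2 fold changes lay between -0.08 (SRSF10) and 0.19 (SRSF9), with a median of 0.07 against 0.01 for all genes. The 6 members SRSF1, SRSF2, SRSF3, SRSF5, SRSF7 and SRSF9 were higher in IP in each of the 4 RNA pools, a pattern found in 23.3% of all genes, and 0 were lower in all 4 pools, found in 17.5%.

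SRSF9 (ENSG00000111786, chr12:120461672-120495946, minus strand) had 133 and 139 CPM in CA_IP and 148 and 154 CPM in FA_IP. The IP library was above its own input in each pool, by 0.20, 0.21, 0.17 and 0.185 on the log2 scale, while the input and IP libraries as sets overlapped, with 136 CPM in an FA_IN library above 133 CPM in a CA_IP library. The log2 fold change over both treatments was 0.19 (standard error 0.05, adjusted p = 0.0941, edgeR). With the replicate number as a block the adjusted p for SRSF9 was 0.0103, and with the RNA pool as a block it was 0.00282. In clean air alone the pool block gave SRSF9 an adjusted p of 0.0271, in a fit that called 17.4% of all genes. With the pool block 25.1% of all genes were called, and with the replicate block 18.2%.

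SRSF2 (ENSG00000161547, chr17:76734115-76737333, minus strand) had 437 and 464 CPM in CA_IP and 428 and 420 CPM in FA_IP. It was the only member whose 4 IP libraries all lay above its 4 input libraries, which held for 7.76% of all genes, and 0 members lay below, against 5.9%. Its log2 fold change was 0.13 (standard error 0.05, adjusted p = 0.233, edgeR), and the adjusted p was 0.0282 with the RNA pool as a block. SRSF7 had 219 and 258 CPM in CA_IP and 196 and 261 CPM in FA_IP, with IP above input in every pool and the same order of replicates in IP as in input. Its log2 fold change of 0.13 (standard error 0.12, adjusted p = 0.662) reached an adjusted p of 0.0392 in edgeR with the RNA pool as a block. SRSF2, SRSF7 and SRSF9 were the members called with that block, 3 of 10.

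Of the other members, SRSF1 had a log2 fold change of 0.10, SRSF5 0.08, SRSF3 0.06 and SRSF6 0.03. SRSF4 (-0.04), SRSF10 (-0.08) and SRSF11 (-0.04) were below 0, and their direction turned with library size in place of TMM, which moved the median of all genes to 0.16 and put all 10 members above 0. Taken separately, 0 of 10 members were called in clean air, where 1.91% of all genes were, and 0 in formaldehyde, where 1.5% were, with 1 and 0 members at an unadjusted p under 0.05 in edgeR. DESeq2 called 0 members in each, with 0 at an unadjusted p under 0.05, against 2.79% and 2.13% of all genes. SRSF9 had 0.21 in clean air and 0.175 in formaldehyde, and SRSF2 had 0.14 and 0.12. The interaction of treatment and pull-down lay between -0.03 (SRSF9) and 0.06 (SRSF10) over the members, with 0 of 10 called in edgeR or DESeq2 and 0 at an unadjusted p under 0.05, against 0.0% of all genes called in edgeR and 0.0164% in DESeq2. These comparisons share libraries, the inputs of each treatment entering the formaldehyde and the pull-down contrasts alike.

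**Figure D3:**
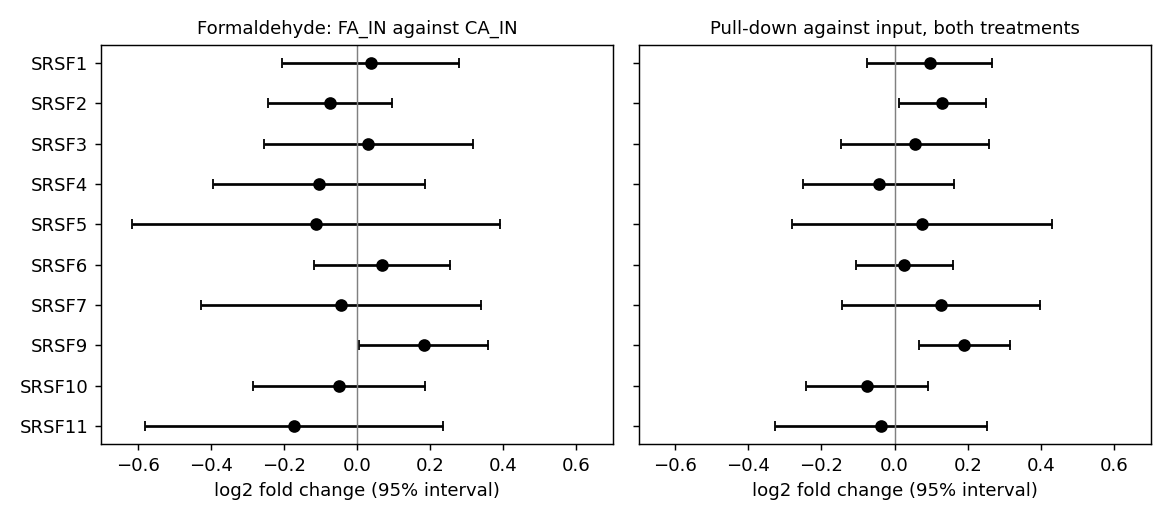
Log2 fold change with its 95% interval from edgeR for each member, for formaldehyde against clean air in input (left) and for IP against input over both treatments (right). The values lie between -0.17 and 0.18 on the left and between -0.08 and 0.19 on the right.

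Counting used no strand setting, so reads of overlapping genes cannot be told apart by strand. SRSF1 overlaps ENSG00000266086, a gene on its own strand with 407 to 1070 counts per library. SRSF2 overlaps MFSD11 over 1469 bases, and MFSD11 had 391 to 943 counts per library. SRSF9 overlaps GATC, with 1126 to 2913 counts, and DYNLL1, with 977 to 4934 counts. Their part in the values of SRSF1, SRSF2 and SRSF9 was not tested.

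Decay isoforms took very different shares of the counts of the SR genes. In input they made up 25.6 ± 3.98% (SD, n = 4) of SRSF7 counts, 23.1 ± 1.69% of SRSF6, 10.7 ± 1.12% of SRSF3, 9.53 ± 0.719% of SRSF2 and 8.45 ± 1.12% of SRSF5. They made up 2.30 ± 0.251% of SRSF1, 2.19 ± 0.459% of SRSF4, 1.99 ± 0.215% of SRSF10 and 1.07 ± 0.255% of SRSF11, and SRSF9 had almost none, at most 0.102% in any library. The median share over all genes with decay isoforms tested was 6.11%. Counted per effective length, which approximates molecules rather than reads, the decay share of SRSF6 in input was 45.7 ± 2.35% and that of SRSF7 14.1 ± 2.93%, so that SRSF6 rather than SRSF7 ranked highest by that measure.

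Formaldehyde was compared with clean air in input for these shares. Of the 9 members that passed the filter, 0 were called by limma on the log2 ratio of decay to other counts, as were 0.0% of the 3674 genes tested, and 0 members had an unadjusted p under 0.05. The decay counts of SRSF6 (ENSG00000124193, chr20:43457893-43466046, plus strand), all from SRSF6-202, were 23.1% and 21.2% (CA_IN, replicates 1 and 3) beside 25.3% and 22.7% (FA_IN), with overlapping groups. SRSF7 had 27.1% and 22.7% in CA_IN and 30.5% and 22.1% in FA_IN, replicate 1 being the higher in both. The log2 ratio differed by 0.15 (standard error 0.19) for SRSF6 and by 0.10 (standard error 0.37) for SRSF7. Over the 9 members the differences lay between -0.25 (SRSF1) and 0.39 (SRSF11), with a median of 0.10.

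**Figure D4:**
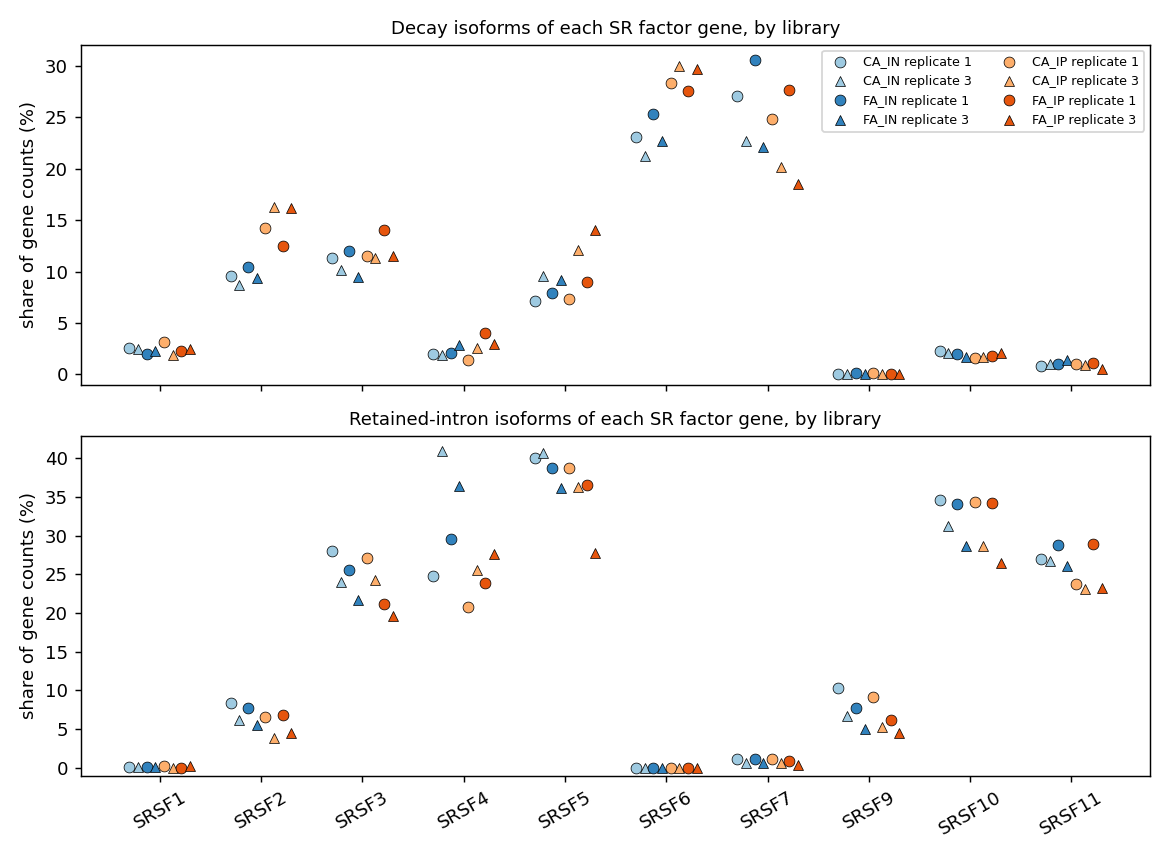
Share of each gene's expected counts in decay isoforms (upper panel) and retained-intron isoforms (lower panel), in percent, for the 8 libraries. For SRSF2 and SRSF6 the 4 IP libraries lie above the 4 input libraries in the upper panel, and for other members the fractions overlap.

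Between IP and input, the decay share was higher in IP for SRSF2 and SRSF6 in every library. For SRSF2 the values were 9.62% and 8.69% (CA_IN), 10.4% and 9.40% (FA_IN), 14.2% and 16.3% (CA_IP) and 12.5% and 16.1% (FA_IP). For SRSF6 they were 28.3% and 30.0% in CA_IP and 27.5% and 29.7% in FA_IP, beside the input values above. The IP means were 14.8 ± 1.81% for SRSF2 and 28.9 ± 1.18% for SRSF6 (SD, n = 4 IP libraries), which is 5.25 and 5.81 percentage points above input. All 4 IP libraries lay above all 4 input libraries in 2 of 9 members, and in 3.57% of all genes with decay isoforms, and 0 members showed the opposite, against 2.04%. Fitted over all genes by limma, the log2 ratio of decay to other counts differed by 0.71 for SRSF2 (standard error 0.16, adjusted p = 0.364) and by 0.44 for SRSF6 (standard error 0.14, adjusted p = 0.635). So 0 of 9 members were called over both treatments, as against 0.245% of all genes, with 2 at an unadjusted p under 0.05. Taken separately, the treatments gave 0 of 9 calls each, against 0.163% (clean air) and 0.191% (formaldehyde) of all genes, with 2 and 1 members at an unadjusted p under 0.05.

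Dividing counts by effective length kept IP above input for both genes. By that measure the decay share of SRSF2 was 13.5 ± 0.646% in input and 18.9 ± 2.37% in IP, and that of SRSF6 45.7% and 53.3 ± 1.32%, again without overlap. As a share of counts, SRSF7 was lower in IP in each pool, with a mean of 25.6% in input and 22.8 ± 4.22% in IP, overlapping libraries and a log2 difference of -0.23 (standard error 0.26). As shares of counts, SRSF3 and SRSF5 were higher in IP in all 4 pools with overlapping ranges, 12.1 ± 1.33% and 10.6 ± 3.01% in IP. Per effective length they were higher in 2 of 4 and 3 of 4 pools, SRSF3 being lower in IP in both clean air pools. The isoforms also differ in composition and length. Decay isoforms of SRSF2 and SRSF6 held more guanine than the other isoforms of the same gene, weighted by count, 28.2% against 24.2% and 25.5% against 21.4% of bases, and were shorter, 1358 against 2088 nt and 1680 against 4325 nt. In SRSF7 the decay isoforms held 22.5% guanine against 24.7% and were the longer, 2283 against 1313 nt. Those of SRSF5, with a higher share in IP, held 25.2% against 26.2% and were also the longer, 2057 against 1724 nt. Those of SRSF11 held 27.1% against 21.5% and were shorter, 775 against 2940 nt, with mean shares of 1.07% in input and 0.876% in IP. For SRSF1 the values were 27.6% against 23.0% and 906 against 2493 nt, with mean shares of 2.30% and 2.44%. Decay isoforms were also shorter and held more guanine in SRSF3, SRSF4 and SRSF10, whose mean shares in IP were higher, higher and lower. Whether length or guanine content had a part in these shares was not tested. For the interaction of treatment and pull-down 0 of 9 members were called in limma, with 0 at an unadjusted p under 0.05 and 0.0% of all genes called.

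At the level of single transcripts, 90 transcripts of the members passed the filter. In formaldehyde against clean air input 0 were called by edgeR, as were 0.0% of the 67873 transcripts tested, and 2 had an unadjusted p under 0.05. In IP against input over both treatments edgeR called 1, SRSF2-201, which was higher in IP, with 13 at an unadjusted p under 0.05, while 0.582% of all transcripts were called. DESeq2, whose calls covered 3.43% of all transcripts, called 5, all higher in IP. These were SRSF2-201, the decay isoforms SRSF2-204, SRSF2-208 and SRSF6-202, and SRSF2-205, a protein-coding isoform named after its values were seen. In clean air alone edgeR called 0 of 90 and DESeq2 4 (SRSF2-201, SRSF2-205, SRSF2-208 and SRSF6-202), against 0.242% and 1.97% of all transcripts. In formaldehyde alone both called 0, against 0.144% and 1.4%, with 5 and 6 at an unadjusted p under 0.05.

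SRSF2-201 is a protein-coding isoform of 572 nt with 1.44% of the counts of its gene. It had 0.22 and 0 expected counts (CA_IN), 132 and 93.8 (FA_IN), 160 and 439 (CA_IP) and 294 and 232 (FA_IP). Both clean air input libraries were near 0, below the other 6 libraries. With a floor of 3 counts per library for CA_IN, the group mean of SRSF2-201 was at least 185-fold higher in CA_IP and at least 54.3-fold higher in FA_IN. Its mean was 3.14-fold higher in FA_IP than in FA_IN. These are ratios of group means and do not bound single libraries, which differed within groups, as with 160 and 439 counts in CA_IP. The floor does not cover error in dividing shared reads between isoforms. The adjusted p in edgeR was 0.0464 over both treatments and 0.920 for formaldehyde in input, where DESeq2 gave 6.97e-06. In DESeq2, 1 of 90 transcripts was called for formaldehyde in input, against 0.166% of all transcripts, and 1, the same transcript, was lower for the interaction, against 0.318%. The edgeR call for IP was lost on leaving out each of 7 of the 8 libraries, all but replicate 1 of CA_IP, with adjusted p-values between 0.0671 and 0.166, and with the replicate number as a block (0.102), where 0.65% of all transcripts were called. It was kept with the RNA pool as a block (0.0376), where 0.27% were called. In edgeR 0 of 90 transcripts were called for the interaction, with 2 at an unadjusted p under 0.05 and 0.0% of all transcripts called.

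The decay isoform SRSF2-208 had 842 and 689 expected counts (CA_IN), 396 and 677 (FA_IN), 755 and 959 (CA_IP) and 493 and 1034 (FA_IP). Relative to the depth of the libraries these gave a log2 fold change of 0.97 (standard error 0.19, adjusted p = 0.138, edgeR). For SRSF6-202 the log2 fold change was 0.33 (standard error 0.07, adjusted p = 0.148), while the coding isoform SRSF6-201 had -0.11 (standard error 0.07). In DESeq2 the adjusted p was 0.00048 for SRSF2-208 and 0.000163 for SRSF6-202. The poison exon isoform SRSF3-203 had a log2 fold change of 0.24 (standard error 0.07, adjusted p = 0.355, edgeR) and SRSF5-211 0.35 (standard error 0.11, adjusted p = 0.349, edgeR). SRSF4-205, with 2.33% of the counts of SRSF4, had 0.20 (standard error 0.31). The decay isoforms SRSF1-207, SRSF10-215 and SRSF11-211 had 0.02, -0.27 and -0.09.

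Retained-intron isoforms held a larger part of several SR genes than decay isoforms did. In input they took 38.9 ± 2.04% (SD, n = 4) of SRSF5 counts, 32.9 ± 7.15% of SRSF4, 32.1 ± 2.77% of SRSF10, 27.1 ± 1.17% of SRSF11 and 24.8 ± 2.70% of SRSF3, and 7.43% or less of SRSF9, SRSF2, SRSF7 and SRSF1. SRSF6 had no such isoform. Per effective length the order was another, with SRSF3 at 34.4 ± 0.757%, SRSF5 at 26.2 ± 3.23%, SRSF10 at 18.3 ± 2.06%, SRSF4 at 13.9 ± 2.95%, SRSF11 at 12.9 ± 0.495% and SRSF2 at a mean of 12.9%. The median share of counts over all genes tested was 5.83%. For SRSF4, the share came almost wholly from SRSF4-207, an isoform of 8128 nt that held 24.2% and 40.7% of counts (CA_IN), 28.8% and 35.4% (FA_IN), 20.4% and 25.4% (CA_IP) and 23.9% and 27.6% (FA_IP).

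The mean retained-intron share of counts was lower in IP than in input for 9 of 9 members, and for 62.6% of all genes. The libraries overlapped for each member, and did not overlap in 4.0% of all genes with IP lower and in 2.06% with IP higher. The differences ran from -8.44 percentage points in SRSF4, where IP was below input in all 4 pools, to -0.03 points in SRSF1. Per effective length the SRSF4 share was 13.9% in input and 10.1 ± 4.03% in IP and was lower in 3 of 4 pools, with replicate 1 of clean air at 10.4% in input and 15.9% in IP. In limma 0 of 9 members were called, with 0 at an unadjusted p under 0.05 and 0.0362% of all genes called, and the count was also 0 in clean air (0.0362% of genes), in formaldehyde (0.0362%) and for the interaction (0.0904%), each with 0 at an unadjusted p under 0.05. The median log2 difference over the members was -0.26, and over all genes -0.12. For formaldehyde in input 0 of 9 were called, with 0 at an unadjusted p under 0.05 against 0.0181% of all genes called. For SRSF5 these shares were 40.0% and 40.7% in CA_IN and 38.7% and 36.1% in FA_IN, a log2 difference of -0.18 (standard error 0.25).

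The isoforms counted in IP were on average shorter than those in input for all 10 members. The share of all genes with a shorter mean is not given here. In SRSF9 the mean lengths were 1199.08 ± 2.41 nt in input and 1196.76 ± 2.13 nt in IP (SD, n = 4 each), with overlapping libraries. The difference was only -2.33 nt, though SRSF9 is among the members that were lower in all 4 pools. The mean length of the counted isoforms, weighted by count, was lower in IP in all 4 pools for 9 of 10 members, a pattern found in 14.7% of the 14103 genes with at least 2 counted isoforms, and it was lower in 3 of 4 pools for SRSF3. In SRSF1 it was 2515, 2513, 2445 and 2507 nt in input (CA_IN and FA_IN, replicates 1 and 3 in turn) and 2401, 2334, 2429.5 and 2389 nt in IP. In SRSF6 it was 3714 ± 44.7 nt in input and 3560.5 ± 31.3 nt in IP (SD, n = 4 each), and in SRSF11 2966 ± 5.91 and 2845 ± 72.7 nt. In these 3 members every IP library was below every input library, as in 5.47% of all genes, and 0 members showed the opposite, against 2.53%. In SRSF1 the isoform of 3117 nt, SRSF1-205, took 59.5% to 63.9% of counts in input and 52.4% to 58.4% in IP, while SRSF1-201, of 1513 nt, took 31.1% to 34.9% in input and 36.8% to 41.5% in IP. This measure was chosen after the data were seen and no test was run on it.

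SR factor levels differed between libraries numbered 1 and 3. In a fit with the number as a term, added after the data were seen, 6 of the 10 members were called between replicates 3 and 1 in edgeR, against 21.9% of all genes. Higher in replicate 3 were SRSF7 by 0.30 on the log2 scale (standard error 0.05, adjusted p = 0.0013), SRSF3 by 0.21 (standard error 0.05, adjusted p = 0.00579) and SRSF1 by 0.16 (standard error 0.04, adjusted p = 0.0172). Lower in replicate 3 were SRSF5, with a log2 difference of -0.43 (standard error 0.05, adjusted p = 9.12e-05), SRSF11 with -0.32 (standard error 0.06, adjusted p = 0.00138) and SRSF4 with -0.18 (standard error 0.06, adjusted p = 0.0451). The direction was the same in all 4 groups for each of these genes. With SRSF9, 4 members were higher in replicate 3 in all 4 groups and 3 were lower, against 18.2% and 21.1% of all genes. SRSF2, SRSF6, SRSF9 and SRSF10 were not called, with 0.01, 0.00, 0.06 and -0.12. The numbers mark biological replicates by the study's supplement, which does not say how they were made, and input and IP of the same treatment and number were taken as 1 RNA pool. The fit counted input and IP of 1 pool as separate libraries. Its p-values therefore assume more independent samples than there were pools, and the 4 groups are not 4 independent comparisons.

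**Figure D5:**
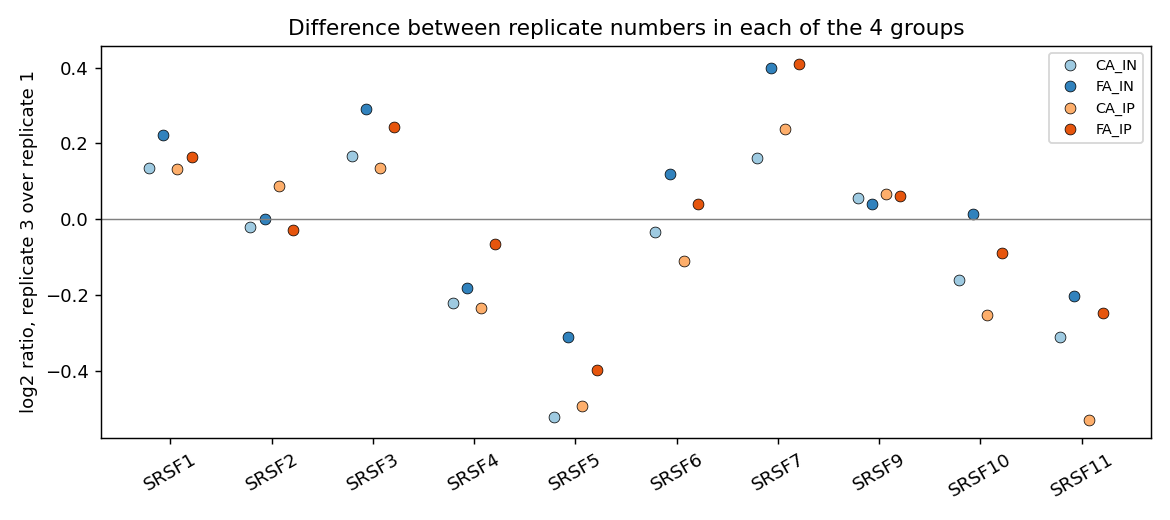
Log2 ratio of TMM-normalised CPM between replicate 3 and replicate 1 within each group, for each member. SRSF5 lies between -0.52 and -0.31 in the 4 groups, and SRSF7 between 0.16 and 0.41.

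Isoform shares were compared between the numbers in the same way. The decay share of SRSF7 was lower in replicate 3 in all 4 groups, with a log2 difference of -0.53 (standard error 0.15, adjusted p = 0.779, limma), and that of SRSF3 was also lower in all 4, as in 7.57% of all genes. The 2 main decay isoforms of SRSF7 had opposite orders between the numbers in every group. SRSF7-208, which keeps an intron, took 16.5%, 13.1%, 15.2% and 11.7% of counts in replicate 1 of CA_IN, FA_IN, CA_IP and FA_IP. Its shares were 9.71%, 7.87%, 8.00% and 5.45% in replicate 3. SRSF7-204, with the spliced poison exon printed above, took 7.69%, 11.3%, 6.93% and 7.34% in replicate 1 and 11.8%, 12.3%, 10.8% and 12.1% in replicate 3. SRSF7-205, with the same poison exon, went the other way, with 2.00%, 4.43%, 1.74% and 7.04% in replicate 1. In replicate 3 it took 0.382%, 1.23%, 0.0% and 0.341%. The order of SRSF7-204 is thus that of 1 isoform and not of the poison exon. The decay share of SRSF5 was higher in replicate 3 in all 4 groups (log2 difference 0.56, standard error 0.17, adjusted p = 0.779, limma), in the gene whose total was lower there. A decay share higher in replicate 3 in all 4 groups was found in 7.43% of all genes. The retained-intron share was lower in replicate 3 in all 4 groups for 6 of 9 members, a pattern in 17.3% of all genes, and higher in all 4 for SRSF4 only. Of 9 members 0 were called for decay shares (2 at an unadjusted p under 0.05) and 0 for retained introns (5), with 0.0% of genes called in each case, and 0 of 90 transcripts were called, with 33 at an unadjusted p under 0.05 and 0.00295% of all transcripts called. An unadjusted p under 0.05 was found for 212 of all 3674 genes in decay shares and for 627 of 5531 in retained introns. Of all 67873 transcripts, 6738 had such a p.

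Genes that act with the SR factors were described by further lists. In the fit over both treatments, which called 5.19% of all genes between IP and input, 1 of 12 SR-related splicing factors was called, U2AF2, the large subunit of the factor that binds the polypyrimidine tract, with a log2 fold change of 0.32 (standard error 0.06, adjusted p = 0.0208, edgeR). Of 12 hnRNP proteins, which often oppose SR proteins at splice sites, HNRNPF was called (log2 fold change 0.23, standard error 0.05, adjusted p = 0.0412, edgeR). Of 9 kinases and import factors of SR proteins and of 14 nonsense-mediated decay factors 0 were called. The medians of these lists were 0.00, 0.08, 0.00 and 0.06, beside 0.01 for all genes. For formaldehyde in input 0 genes of these 4 lists were called. Of 8 epithelial markers 3 were higher in IP over both treatments, KRT7 by 0.46, KRT8 by 0.40 and KRT18 by 0.39 on the log2 scale, all 8 were above 0, and the list's median was 0.39. Summed over the 8 markers, the level was 4881 and 5779 CPM (CA_IN), 5465 and 6279 (FA_IN), 6334 and 8319 (CA_IP) and 6729 and 8439.8 (FA_IP). The part of these markers in the values of the SR factors was not tested. Of 8 markers of other cell types 4 were tested and 0 were called in IP. The summed level of those 4 was 9.03 to 11.2 CPM in input and 6.86 to 9.98 CPM in IP, most of it CD68, and PTPRC, CD3E, VWF and DCN had at most 7 counts in any library. With the RNA pool as a block, a fit that called 25.1% of all genes, 2 SR-related factors were higher in IP and 1 was lower. Of the hnRNP proteins 5 were higher and 1 was lower, of the decay factors 5 were higher and 2 were lower, and of the kinases and import factors 1 was higher and 1 was lower. Of the epithelial markers 6 were higher with that block, and of the other markers CD68 was lower, with a log2 fold change of -0.31 (adjusted p = 0.0283, edgeR).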

How the data were processed

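RNA-seq of BEAS-2B input and immunoprecipitated RNA was analysed from the 8 tables of isoforms that the authors deposited, 1 per library, with expected counts, TPM and effective lengths. According to the methods and the processing notes, the authors trimmed reads with cutadapt, aligned them with STAR 2.6.0a and quantified them with RSEM 1.2.25 against Ensembl annotation of GRCh38, with no strand setting. The effective length deposited by the authors is in bases and served only for the shares per effective length. The authors' own DESeq2 tables of fold changes and p-values were not used, and 0 columns of other samples were found.

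Expected counts, as deposited, were summed by gene and rounded. Features with 10 or more rounded counts in 2 or more libraries were fitted over all 8 libraries with edgeR 4.0.16 (quasi-likelihood, TMM, prior count 0.125, R 4.3.3), with Benjamini-Hochberg adjustment over all features and a threshold of 0.05. Decay and retained-intron shares were fitted with limma 3.58.1 as log2((class + 0.5)/(other + 0.5)), a scale that understates changes of rare classes. Exact permutation tests of single shares (scipy 1.17.1) are not reported, since they treat libraries of 1 RNA pool as independent. The alternatives were DESeq2 1.42.0, library size scaling, other filters and pseudocounts, left-out libraries, and the replicate number or the RNA pool as a block. Deviations of same-numbered libraries from their group means correlated at 0.20 to 0.38 over genes in all 6 pairs of groups, and the methods describe splitting each RNA into input and IP. The numbers come from the names of the deposited tables, the supplement calls them biological replicas, and that equal numbers mark 1 RNA pool is not stated. The gene fit and the decay-share fit were tested on simulated data for IP against input over both treatments only. Simulated libraries of 1 RNA pool were drawn independently, and the other fits and contrasts were not simulated. Transcript types, stop codons and transcript sequences were taken from GENCODE 44, in which 97.9% of transcript IDs matched. Of the 107 transcripts of the members 106 matched by ID, and 93 had the same length in both annotations. The exons drawn can therefore differ from those counted. The named transcripts were those with at least 5% of the counts of their gene in all libraries together, the most counted decay isoform of each gene, and any with an adjusted p under the threshold. The members, lists and tests were chosen with earlier results of these data known. Retained-intron shares, mean isoform lengths, the replicate number as a term and the TPM scale were added after the data were seen. Intervals of fold changes come from the fit, and the floor of 3 counts covers counting error only. Counts at an unadjusted p under 0.05 carry no matching count over all features, except for isoform shares and transcripts between replicate numbers.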

Additional observations from a re-analysis of the deposited data

How the results depend on the processing

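Among the 10 genes, the count of calls for IP over both treatments went from 0 to 3 with library size scaling (SRSF1, SRSF2 and SRSF9) and with the RNA pool as a block (SRSF2, SRSF7 and SRSF9), and to 1 with the replicate block (SRSF9). In clean air it went from 0 to 1 with library size scaling and with the pool block (SRSF9 in both). Library size scaling also moved the median log2 fold change of all genes over both treatments from 0.01 to 0.16. The shares of all features called with library size scaling or with a mean count of at least 50 are not given here. Calls of members under these 2 settings therefore have no background beside them. Among transcripts, the count over both treatments went from 1 to 3 with library size scaling, to 5 with DESeq2 and to 0 with the replicate block, and lay between 0 and 1 on leaving out single libraries. In clean air it went from 0 to 4 with DESeq2 and to 1 with a mean count of at least 50. DESeq2 gave 1 in place of 0 for formaldehyde in input and for the interaction. For all other comparisons of genes, transcripts and decay shares the count was 0 in every alternative run, between 0 and 0 on leaving out single libraries. For retained-intron shares, fitted also with the replicate and pool blocks only, it was 0 in each. The number of decay or retained-intron shares without overlap was 2 in every alternative, 2 to 2 on leaving out single libraries. Of 1582 single values under alternatives, 8 lost and 14 gained a call, 0 called values changed sign and 172 uncalled values changed sign. The causes were not tested. The replicate block moved the number of genes called from 947 to 3321 for IP over both treatments, from 349 to 1941 in clean air, from 274 to 953 in formaldehyde and from 1 to 258 for formaldehyde in input, and changed no other call of a member. With 2 libraries per group, rare isoforms have wide errors (biological coefficient of variation 0.551 over transcripts and 0.138 over genes), and RSEM splits shared reads between isoforms by estimate.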
